A study of Mus musculus with 6 samples.

Results

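Messenger RNAs of 38 genes of mitosis and the spindle checkpoint were followed in mouse embryonic stem cells given the small molecule SC1 for 6 h. The genes were listed by function, and a probe belonged to a gene when its accession was a RefSeq transcript of that gene. This gave 55 of the 55681 distinct probes of the array, 1 to 3 per gene, and all 38 genes and all 55 probes were well above background on all 6 arrays. In the study 3 samples received 1 µM SC1, also called pluripotin, reported to inhibit ERK1 and RasGAP, and 3 samples received the solvent DMSO. Both groups were J1 cells, a 129S4/SvJae mouse line of inner cell mass origin, adapted to gelatin-coated plates and kept with 1000 U/mL of the self-renewal cytokine LIF. J1 is a single line, and nothing in the labels says that the samples were separate cultures. The p-values therefore measure the spread among these samples alone, and that spread may be technical.

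Entry into mitosis is driven by the kinase CDK1 bound to B-type cyclins, which the CDC25 phosphatases switch on. The spindle checkpoint (BUB1, BUBR1, BUB3, MAD2 and the kinase MPS1) then holds back CDC20, the activator of the ubiquitin ligase APC/C, until every kinetochore is attached to microtubules. Once CDC20 is released, securin and cyclin B are destroyed, sister chromatids part, and the passenger complex, kinesins and PRC1 organise the midzone where the cell divides. Transcription of most of these genes peaks in G2 and mitosis under the control of B-MYB, FOXM1 and the MuvB complex, and pluripotent stem cells, which divide fast with a short G1, carry their transcripts at high levels.

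Each value below is the processed signal of the gene's brightest probe, scaled so that the 75th percentile of every array is 499 units, and levels of different genes cannot be compared because probes differ. Between 63.2% and 65.1% of probes were well above background on SC1 arrays and between 65.0% and 65.6% on DMSO arrays. Precision is limited by having 3 arrays in each group. All 6 arrays were on 1 slide and in 1 scan. SC1 replicate 1 shared the first column of the slide with all 3 DMSO samples, and SC1 replicates 2 and 3 were in the second column. All 10 embryonic stem cell markers were above background on all 6 arrays, with a summed signal of 362380.0 to 380390.0 units in SC1 samples and 352300.0 to 363630.0 units in DMSO samples. Of 10 fibroblast markers Lum and Postn were not above background, and the list summed to 68510.0 to 70441 units in SC1 samples against 72039 to 74025 units in DMSO samples. The sum of 8 primitive endoderm markers was 10626 to 10761 units in SC1 samples and 6459 to 7098 units in DMSO samples. Nearly all of it was Lama1, with 10013 to 10212 units in SC1 samples and 5944 to 6556 units in DMSO samples, and Gata6, Dab2, Sox17 and Sox7 had estimates below 0 that did not pass. That of 8 trophoblast markers, of which Elf5 and Hand1 were not above background, was 17297 to 18300.0 units in SC1 samples and 7777 to 8062 units in DMSO samples. Tfap2c made most of that sum, with 14038 to 15109 units in SC1 samples and 5363 to 5743 units in DMSO samples, while Eomes fell. Cdx2 was also called lower, but it was above background on 3 of the 6 arrays and was tested only because of the DMSO samples. It had 2.34 to 7.24 units in SC1 samples and 9.86 to 17.0 units in DMSO samples, so its call is not relied on. The sums are over probes of unlike brightness and follow the brightest. By gene, 3 of 10 embryonic stem cell markers rose and 3 fell, and 4 of 8 fibroblast markers tested rose and 1 fell. Of 8 primitive endoderm markers 4 rose, and of 6 trophoblast markers tested 4 rose and 2 fell, Cdx2 among the latter. Across everything tested 18.1% was called higher and 20.2% lower. The part of these marker shifts in the results was not tested. In bulk RNA a change in the share of cells in mitosis and a change in RNA per cell cannot be told apart.

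Mitotic messenger RNAs changed with SC1 in both directions, none of them 2-fold. Increases were called for 12 of the 38 genes and decreases for 4, while 22 did not pass (limma, Benjamini-Hochberg adjusted p under 0.05 over 25421 genes and intervals). Across everything tested, which includes intervals, 38.4% was called, 18.1% higher and 20.2% lower with SC1. Of genes with an official symbol 44.95% were called, 21.2% higher and 23.7% lower. The mitotic genes' 42.1% lay between these backgrounds, with 31.6% higher and 10.5% lower. The genes that rose were Cdc25b, Kif11, Cenpf, Prc1, Ndc80, Cdk1, Nusap1, Cenpe, Aurka, Plk1, Ccnb1 and Spc25. Those that fell were Mad2l1, Mybl2, Ttk and Bub1. Log2 fold changes ran from -0.29 for Mad2l1 to 0.45 for Cdc25b, a 1.37-fold increase, and 18.4% of all genes tested had a larger absolute change than Cdc25b. The median log2 fold change was 0.076 against -0.0052 over all genes tested, and the median size without regard to sign was 0.10 against 0.17. That gap of 0.081 between the medians was 0.0055 with normexp background correction and the 75th percentile, where the 38 genes had 0.047 and all genes 0.042, and 0.032 with no filter. In 17 of the 38 genes (44.7%) the change was under 0.1 on the log2 scale, against 32.9% of all genes tested. Over the 38 intervals (95%, each gene by itself) the bound farthest from 0 was 0.57, or 1.49-fold. No overlap between the groups was seen for 15 genes with SC1 above and 4 with SC1 below, against 24.6% and 27.6% of all genes tested.

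These calls changed with the scaling and with the design of the fit. With the slide column as a block, which sets SC1 replicate 1 against the 3 DMSO samples and assumes that this lone sample varies like the rest, only Cdc25b and Kif11 passed. The direction of the 16 changed genes is fixed in that setting, since their groups do not overlap. In that setting the median log2 fold change of the 38 genes was 0.11, against 0.076 without the block. Whether position on the slide or the lone SC1 sample accounted for the lost calls was not tested. Scaled to 8 spike-in probe sequences none passed (limma; 4 had an unadjusted p under 0.05), and the median SE was 0.154 against 0.0479 with the 75th percentile. The deposited log2 matrix gave 18 higher and 3 lower, so 85.7% of those calls were increases, against 12 of 16 with the 75th percentile. Over all genes increases made up 51.9% of the calls with the deposited matrix, which called 37.9% of them, and 47.3% with the 75th percentile. Of the 16, 9 kept their call whichever 1 array was left out: Cdk1, Cdc25b, Mad2l1, Cenpe, Ndc80, Kif11, Nusap1, Prc1 and Mybl2. Plk1 and Spc25 each lost it without 5 of the 6 arrays, Aurka and Bub1 without 4, Cenpf without 3, and Ccnb1 and Ttk without 2. Without SC1 replicate 1 the increases numbered 7 and without DMSO replicate 2 or DMSO replicate 3 the decreases numbered 2. With 1 array left out the share of all genes called also fell, from 38.4% to between 30.2% and 32.8%.

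**Figure D1:**
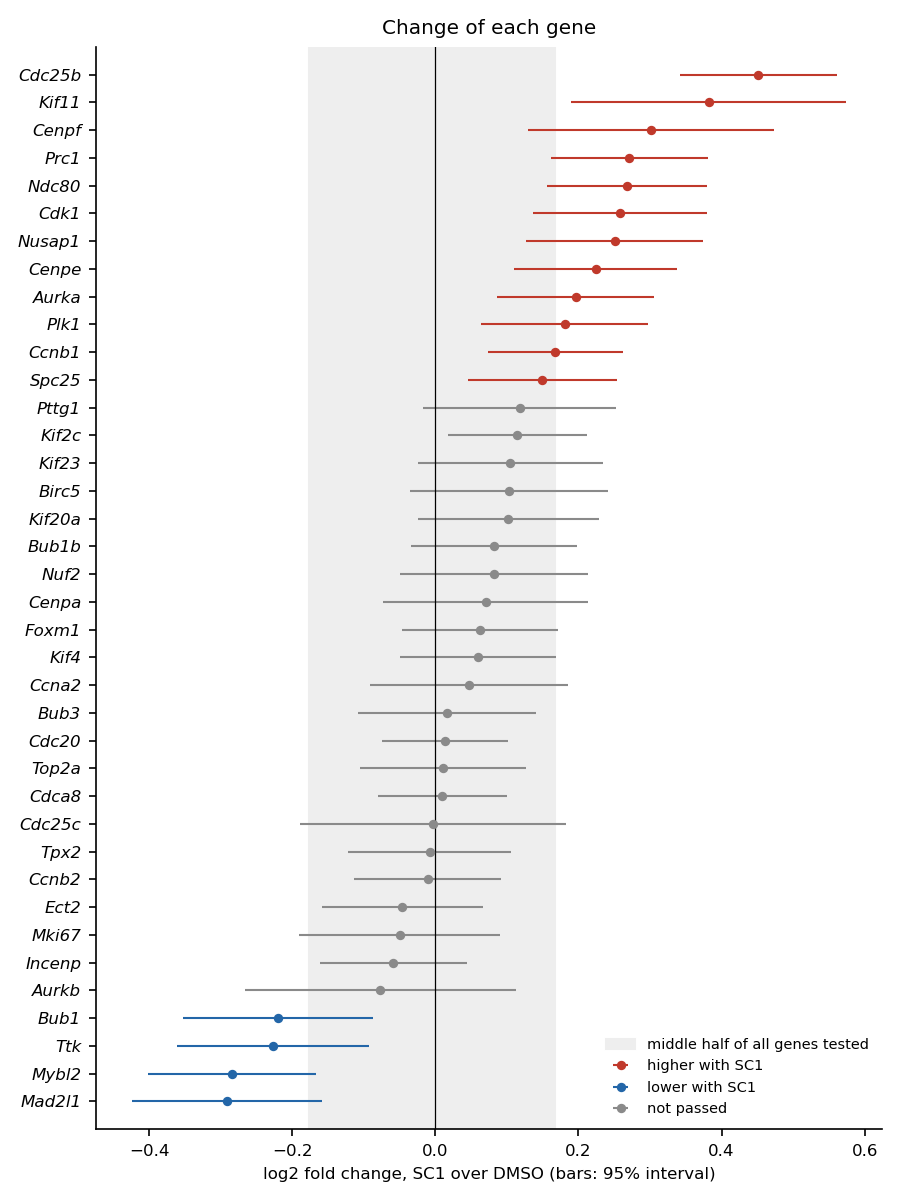
Log2 fold change of each of the 38 genes, SC1 over DMSO, with 95% intervals (n = 3 samples per group). Colours give the limma call, and the grey band runs between the quartiles of all genes tested, -0.18 and 0.17. The 12 increases run from 0.15 for Spc25 to 0.45 for Cdc25b and the 4 decreases from -0.29 to -0.22.

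**Figure D2:**
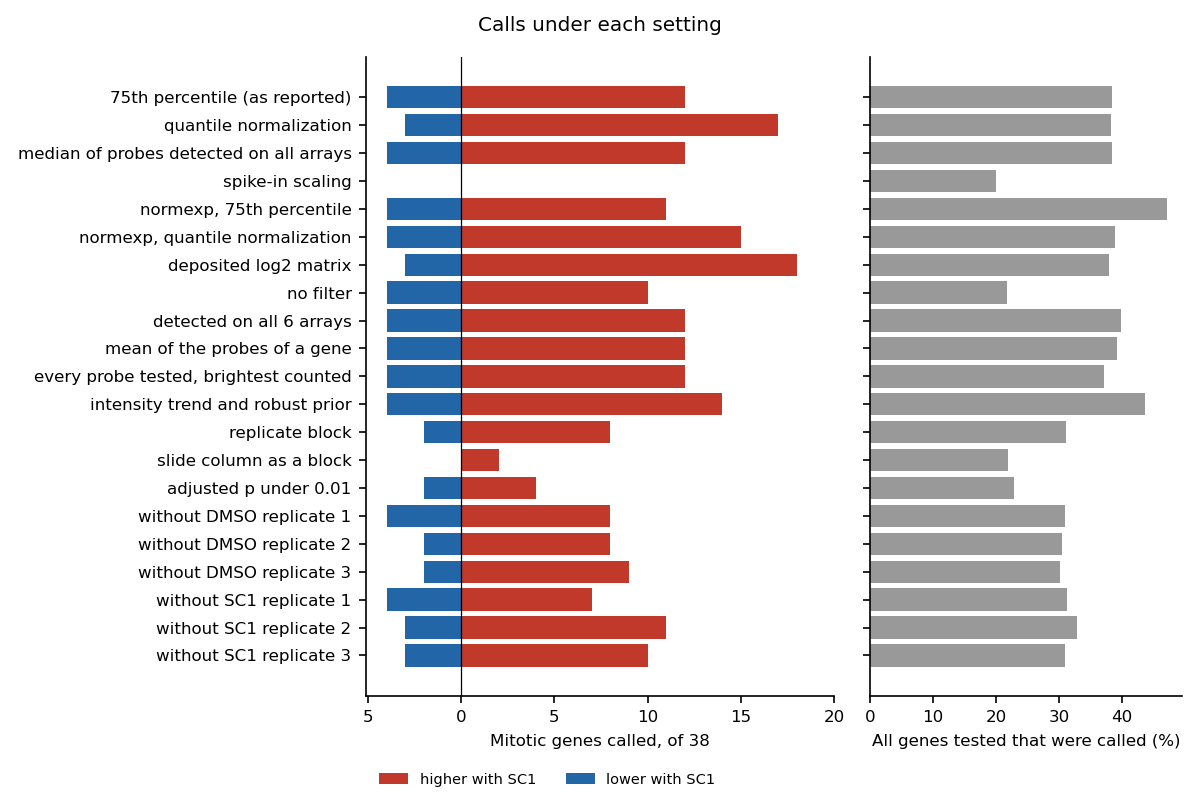
Left, number of the 38 genes called higher (to the right of 0) and lower (to the left) under each setting. Right, share of all genes tested that was called under the same setting. Spike-in scaling called 0 of the 38 and the slide column as a block called 2, while 19.9% and 21.8% of all genes were called under them.

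Promoter windows of the 3 genes with the largest increase and the 3 with the largest decrease are shown because genes of this programme are known to share 2 promoter elements, the cell cycle genes homology region (TTTGAA) and the CCAAT box bound by NF-Y. The sequences are RefSeq's (GRCm38.p6), 250 bases before to 50 after the gene's start, 5′ to 3′ on the gene's strand. Capitals mark TTTGAA and CCAAT on either strand (TTCAAA and ATTGG where they lie on the other strand). The windows are Cdc25b at chr2:131186698-131186997, plus strand, Kif11 at chr19:37376132-37376431, plus strand, Cenpf at chr1:189688037-189688336, minus strand, Mad2l1 at chr6:66534971-66535270, plus strand, Mybl2 at chr2:163054385-163054684, plus strand and Ttk at chr9:83834439-83834738, plus strand.
Cdc25b: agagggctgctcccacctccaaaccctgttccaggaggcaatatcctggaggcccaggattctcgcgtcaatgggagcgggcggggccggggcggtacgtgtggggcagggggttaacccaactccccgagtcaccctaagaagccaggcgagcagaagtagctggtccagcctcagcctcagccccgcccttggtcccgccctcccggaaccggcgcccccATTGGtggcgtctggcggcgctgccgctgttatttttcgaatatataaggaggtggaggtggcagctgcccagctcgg
Kif11: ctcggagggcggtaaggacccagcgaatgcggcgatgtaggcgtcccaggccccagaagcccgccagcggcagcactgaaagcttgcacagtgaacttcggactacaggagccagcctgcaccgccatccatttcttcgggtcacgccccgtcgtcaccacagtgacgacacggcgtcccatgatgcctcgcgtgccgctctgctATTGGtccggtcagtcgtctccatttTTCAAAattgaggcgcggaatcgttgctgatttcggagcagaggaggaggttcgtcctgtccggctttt
Cenpf: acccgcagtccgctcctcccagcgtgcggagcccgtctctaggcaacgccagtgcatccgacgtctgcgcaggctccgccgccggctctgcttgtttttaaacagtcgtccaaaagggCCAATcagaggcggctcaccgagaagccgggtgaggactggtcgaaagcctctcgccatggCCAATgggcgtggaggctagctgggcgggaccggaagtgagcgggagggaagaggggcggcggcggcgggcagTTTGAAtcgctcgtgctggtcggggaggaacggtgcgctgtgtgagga
Mad2l1: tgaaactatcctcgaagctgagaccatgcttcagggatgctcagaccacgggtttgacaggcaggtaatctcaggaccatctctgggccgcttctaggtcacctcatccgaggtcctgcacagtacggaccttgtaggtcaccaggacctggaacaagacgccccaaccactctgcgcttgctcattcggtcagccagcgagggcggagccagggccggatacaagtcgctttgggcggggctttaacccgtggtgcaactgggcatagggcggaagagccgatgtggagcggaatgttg
Mybl2: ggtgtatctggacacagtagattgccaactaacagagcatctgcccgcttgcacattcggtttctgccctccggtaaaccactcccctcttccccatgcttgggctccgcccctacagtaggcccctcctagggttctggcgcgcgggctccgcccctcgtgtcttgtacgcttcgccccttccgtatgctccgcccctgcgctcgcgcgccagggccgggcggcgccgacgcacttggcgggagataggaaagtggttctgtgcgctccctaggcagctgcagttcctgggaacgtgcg
Ttk: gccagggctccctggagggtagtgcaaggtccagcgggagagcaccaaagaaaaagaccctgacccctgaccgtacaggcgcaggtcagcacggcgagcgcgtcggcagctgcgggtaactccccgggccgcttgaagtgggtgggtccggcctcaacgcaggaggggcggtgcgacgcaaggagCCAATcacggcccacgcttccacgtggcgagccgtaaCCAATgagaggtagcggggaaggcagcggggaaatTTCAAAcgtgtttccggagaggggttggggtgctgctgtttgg

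Of the 38 genes 31 had a window. Ccna2, Cdc25c, Incenp, Aurkb, Kif20a, Tpx2 and Foxm1 had none. TTTGAA, searched on both strands, was in the windows of 21 of the 31 (67.7%) and CCAAT in those of 23 (74.2%), against 20.2% and 41.1% of 27025 genes with a window. By call, TTTGAA was found in 8 of 12 genes that rose, 1 of 4 that fell (Ttk) and 12 of 15 that did not pass. CCAAT was found in 10 of 12, 2 of 4 and 11 of 15. Neither motif was in the windows of Mad2l1 and Mybl2, and Cdc25b held CCAAT without TTTGAA. The E2F motifs TTCCCGC and TTGGCGC were in 0 and 4 of the 31 windows (5.29% and 2.85% of all genes). Only the exact letters of each motif were searched. Other forms of the cell cycle genes homology region, the E2F site or any other element were not counted, also where no match was found. TAACGG, a MYB motif, was in 1 and TGTTTAC, a forkhead motif, in 2. No match in the 6 printed windows overlapped another. A match describes the letters only, and genes with and without these motifs were among those that rose, fell and did not pass.

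Genes of mitotic entry gave 3 increases (50%, beside 18.1% of everything tested) and 3 genes that did not pass. Cdc25b, which encodes a phosphatase that activates CDK1 at the onset of mitosis, had 1813, 1729.9 and 1783 units in SC1 samples, against 1346, 1262 and 1288 units in DMSO samples. The lowest SC1 sample lay well above the highest DMSO sample, and the change was the largest of the 38 genes (log2 fold change 0.45, SE 0.0449, adjusted p = 0.000753). Cdk1, the mitotic kinase itself, had 6379, 6216 and 6802 units in SC1 samples, against 5283, 5426 and 5500 units in DMSO samples (log2 fold change 0.26, SE 0.0495, adjusted p = 0.00914). Ccnb1, the gene of cyclin B1, had 25643, 25361 and 25305 units in SC1 samples, against 22121, 22870 and 22954 units in DMSO samples (log2 fold change 0.17, SE 0.0383, adjusted p = 0.0172). In both genes all SC1 samples were above all DMSO samples, with group means 19.6% higher for Cdk1 and 12.3% higher for Ccnb1. Within the first slide column the log2 fold changes of Cdc25b, Cdk1 and Ccnb1 were 0.48, 0.24 and 0.18, with adjusted p of 0.0101, 0.088 and 0.0988.

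The other B-type cyclin gene, Ccnb2, did not pass. It had 43556, 43476 and 43746 units in SC1 samples, against 42542, 43850 and 45416 units in DMSO samples, and the SC1 values lay inside the DMSO range, with a log2 fold change of -0.011 (95% interval -0.11 to 0.092, adjusted p = 0.866). Ccna2, which encodes the cyclin A of S phase and G2, had 13050 to 14314 units in SC1 samples and 12788 to 13816 units in DMSO samples, a log2 fold change of 0.047 (95% interval -0.091 to 0.19, adjusted p = 0.56). Cdc25c, a further CDK1 phosphatase gene, had 692 to 739 units in SC1 samples and 657 to 789 units in DMSO samples, a log2 fold change of -0.0035 (95% interval -0.19 to 0.18, adjusted p = 0.976). Whether Ccnb1 and Ccnb2 differed in their change was not tested.

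Among kinase genes other than Cdk1, Plk1 and Aurka rose, and Aurkb, Ttk and Bub1, described with their complexes, did not. Plk1, needed for centrosome maturation and mitotic entry, had 26821, 24932 and 26699 units in SC1 samples, against 23286, 23460 and 22453 units in DMSO samples (log2 fold change 0.18, SE 0.0478, adjusted p = 0.0287). Aurka, the centrosomal and spindle kinase Aurora A, had 19280, 18139 and 19502 units in SC1 samples, against 16649, 16377 and 16644 units in DMSO samples (log2 fold change 0.20, SE 0.0447, adjusted p = 0.0171). SC1 replicate 2 was the lowest of the SC1 samples for both and still exceeded every DMSO sample. Leaving that sample out gave an adjusted p of 0.0229 for Plk1 and 0.0151 for Aurka, while without DMSO replicate 3 it was 0.0916 for Plk1 and without DMSO replicate 2 it was 0.0592 for Aurka. Within the first slide column the log2 fold changes were 0.22 and 0.22.

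**Figure D3:**
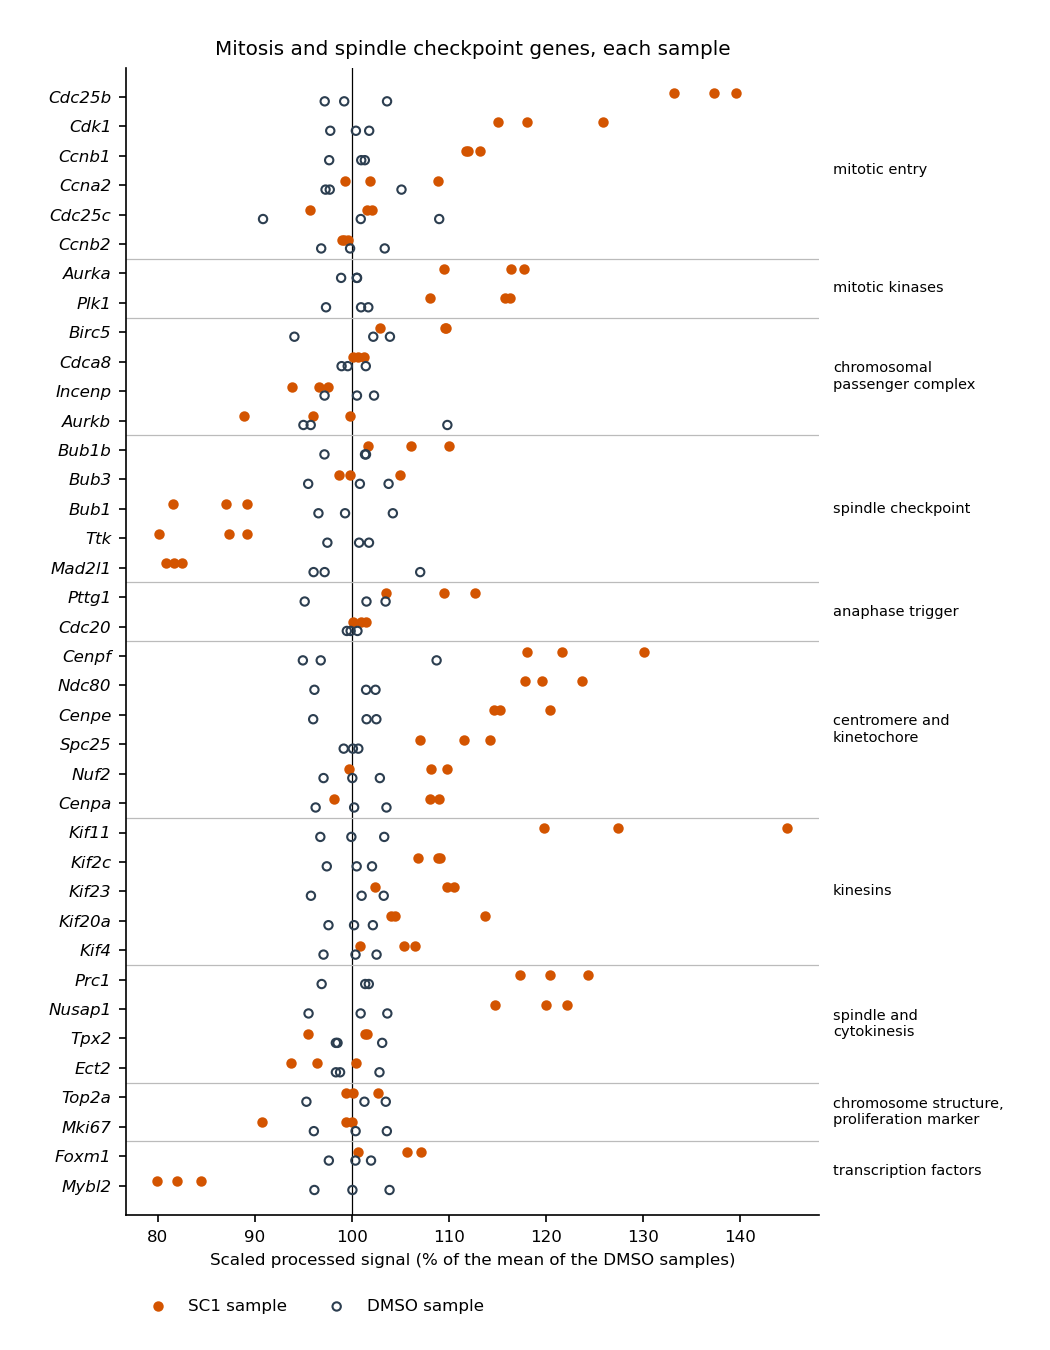
Scaled processed signal of each gene in every sample, as a percentage of the mean of the 3 DMSO samples, grouped by role. Filled points are the 3 SC1 samples and open points the 3 DMSO samples. Points of the groups separate to the right for genes such as Cdc25b, Cdk1 and Prc1, to the left for Bub1, Ttk, Mad2l1 and Mybl2, and overlap for genes such as Ccnb2 and Cdc20.

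Of the 5 spindle checkpoint genes 3 fell (60%, beside 20.2% of everything tested) and 2 did not pass. Mad2l1, which encodes MAD2, the protein that binds and restrains CDC20, had 3167, 3133 and 3199 units in SC1 samples, against 4149, 3723 and 3767 units in DMSO samples (log2 fold change -0.29, SE 0.0543, adjusted p = 0.00817). Ttk, the gene of the checkpoint kinase MPS1, had 707, 649 and 723 units in SC1 samples, against 789, 824 and 816 units in DMSO samples (log2 fold change -0.23, SE 0.0547, adjusted p = 0.021). Bub1, a kinase gene of the kinetochore arm of the checkpoint, had 5965, 5454 and 5819 units in SC1 samples, against 6460.2, 6644 and 6973 units in DMSO samples (log2 fold change -0.22, SE 0.0542, adjusted p = 0.0223). For all 3 genes every SC1 sample was below every DMSO sample, and the group mean fell by 18.3% for Mad2l1, fell by 14.5% for Ttk and fell by 14.2% for Bub1. Bub1 had an adjusted p of 0.0633 with quantile normalization, and without DMSO replicate 3 the adjusted p was 0.0717 for Bub1 and 0.0665 for Ttk. Within the first slide column Mad2l1, Ttk and Bub1 had log2 fold changes of -0.29, -0.20 and -0.17, none of which passed.

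The remaining checkpoint genes did not pass. Bub1b, which encodes BUBR1, a component of the complex that inhibits the APC/C, had 5041 to 5453 units in SC1 samples and 4819 to 5031 units in DMSO samples; the groups did not overlap, but the log2 fold change was 0.082 (95% interval -0.034 to 0.20, adjusted p = 0.229). Bub3, the partner of BUB1 and BUBR1, had 12496 to 13288 units in SC1 samples and 12093 to 13142 units in DMSO samples, with a log2 fold change of 0.016 (95% interval -0.11 to 0.14, adjusted p = 0.833). Cdc20, the APC/C activator that the checkpoint targets, had 35699, 36177 and 35989 units in SC1 samples, against 35458, 35847 and 35598 units in DMSO samples. The groups overlapped, and the log2 fold change was 0.013 (95% interval -0.075 to 0.10, adjusted p = 0.81). Pttg1, which encodes securin, the inhibitor of separase, had 42309 to 46097 units in SC1 samples and 38899 to 42310 units in DMSO samples and a log2 fold change of 0.12 (95% interval -0.017 to 0.25, adjusted p = 0.147).

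Genes of the centromere and kinetochore gave 4 increases among 6 (66.7%, beside 18.1% of everything tested). Cenpf, a large protein of the outer kinetochore, had 232, 211 and 217 units in SC1 samples, against 169.6, 173 and 194 units in DMSO samples (log2 fold change 0.30, SE 0.0701, adjusted p = 0.0183). Ndc80, a subunit of the complex that grips microtubule ends, had 1843, 1935 and 1871 units in SC1 samples, against 1587, 1503 and 1602 units in DMSO samples (log2 fold change 0.27, SE 0.0456, adjusted p = 0.00582). Cenpe, a kinetochore kinesin that carries chromosomes to the metaphase plate, had 16551, 16645 and 17384 units in SC1 samples, against 13860, 14654 and 14801 units in DMSO samples (log2 fold change 0.22, SE 0.0466, adjusted p = 0.0123). SC1 samples stood above DMSO samples in each of these genes, and in Cenpf DMSO replicate 3 came nearest to them. Spc25, a further subunit of the NDC80 complex, had 21124, 21639 and 20257 units in SC1 samples, against 18956, 19063 and 18777 units in DMSO samples (log2 fold change 0.15, SE 0.0424, adjusted p = 0.036). Nuf2, the direct partner of NDC80 in that complex, had 959 to 1056 units in SC1 samples and 934 to 989.8 units in DMSO samples and did not pass, with a log2 fold change of 0.081 (95% interval -0.050 to 0.21, adjusted p = 0.288). Cenpa, the histone variant that marks centromeres, had 11154 to 12386 units in SC1 samples and 10938 to 11767 units in DMSO samples and a log2 fold change of 0.070 (95% interval -0.074 to 0.21, adjusted p = 0.399). Within the first slide column Cenpf, Ndc80, Cenpe and Spc25 had log2 fold changes of 0.38, 0.24, 0.20 and 0.16. Without DMSO replicate 2 the adjusted p of Cenpf was 0.0631, and without DMSO replicate 3 that of Spc25 was 0.102.

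Among 5 kinesin genes Kif11 alone passed (20%, beside 38.4% of everything tested). Kif11, which encodes Eg5, the motor that pushes spindle poles apart, had 2359, 1949.6 and 2075 units in SC1 samples, against 1627, 1575 and 1682 units in DMSO samples (log2 fold change 0.38, SE 0.0784, adjusted p = 0.0117). SC1 replicate 1 was the highest, and within its slide column the log2 fold change was 0.54 (adjusted p = 0.00947). Without that sample it was 0.31 (adjusted p = 0.0172). Kif2c, which encodes the microtubule-depolymerising kinesin MCAK, had 1732 to 1768 units in SC1 samples and 1579 to 1655 units in DMSO samples, without overlap but with a log2 fold change of 0.11 (95% interval 0.017 to 0.21, adjusted p = 0.067). Kif20a, the midzone kinesin MKLP2, had 13611 to 14872 units in SC1 samples and 12768 to 13367 units in DMSO samples, also without overlap, and a log2 fold change of 0.10 (95% interval -0.024 to 0.23, adjusted p = 0.175). Kif23, the midzone kinesin MKLP1, and Kif4, the chromosome-bound kinesin KIF4A, overlapped between groups, with log2 fold changes of 0.10 (95% interval -0.025 to 0.23, adjusted p = 0.175) and 0.060 (95% interval -0.049 to 0.17, adjusted p = 0.344). All 5 estimates were above 0.

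Of 4 genes of the spindle and of cytokinesis 2 rose (50%, beside 18.1% of everything tested) and 2 did not pass. Prc1, which bundles the antiparallel microtubules of the midzone, had 17736, 18194 and 18792 units in SC1 samples, against 15377, 14643 and 15321 units in DMSO samples (log2 fold change 0.27, SE 0.0446, adjusted p = 0.00509). Nusap1, a microtubule-stabilising protein of the central spindle, had 7672, 7340.3 and 7816 units in SC1 samples, against 6109, 6452 and 6628 units in DMSO samples (log2 fold change 0.25, SE 0.0504, adjusted p = 0.0108). Every SC1 sample was above every DMSO sample for both, with group means 20.7% and 19.0% higher, and within the first slide column their log2 fold changes were 0.23 and 0.26. Tpx2, which activates Aurora A on spindle microtubules, had 8654 to 9211 units in SC1 samples and 8918 to 9352 units in DMSO samples on its brightest probe, a log2 fold change of -0.0080 (95% interval -0.12 to 0.11, adjusted p = 0.913). Ect2, the RhoA exchange factor that starts cleavage, had 9968 to 10682 units in SC1 samples and 10459 to 10937 units in DMSO samples and a log2 fold change of -0.046 (95% interval -0.16 to 0.066, adjusted p = 0.48).

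The 4 genes of the chromosomal passenger complex did not pass (limma; unadjusted p 0.118 to 0.794). Birc5, which encodes survivin, had 53641 to 57193 units in SC1 samples and 49022 to 54154 units in DMSO samples, a log2 fold change of 0.10 (95% interval -0.035 to 0.24, adjusted p = 0.207). Cdca8, which encodes borealin, and Incenp, the scaffold of the complex, had log2 fold changes of 0.010 (95% interval -0.080 to 0.10, adjusted p = 0.857) and -0.059 (95% interval -0.16 to 0.044, adjusted p = 0.324). Aurkb, the kinase subunit Aurora B, was measured by a single dim probe with 61.1 to 68.6 units in SC1 samples and 65.3 to 75.5 units in DMSO samples, and its log2 fold change was -0.077 (95% interval -0.27 to 0.11, adjusted p = 0.484). The groups overlapped for all 4 genes. Top2a, the topoisomerase that untangles sister chromatids, and Mki67, the gene of the proliferation marker Ki-67, also overlapped between groups. Top2a had 12316 to 12731 units in SC1 samples and 11815 to 12830 units in DMSO samples, a log2 fold change of 0.010 (95% interval -0.11 to 0.13, adjusted p = 0.886), and Mki67 had 16615 to 18304 units in SC1 samples and 17593 to 18969 units in DMSO samples, a log2 fold change of -0.050 (95% interval -0.19 to 0.091, adjusted p = 0.544).

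The 2 transcription factor genes of the G2 and mitosis programme differed in their calls. Mybl2, which encodes B-MYB, had 47182, 44661 and 45787 units in SC1 samples, against 55883, 53693 and 58022 units in DMSO samples (log2 fold change -0.28, SE 0.048, adjusted p = 0.00565). Every SC1 sample was below every DMSO sample, the call held whichever 1 array was left out, and a second probe gave a log2 fold change of -0.34. Within the first slide column the log2 fold change of Mybl2 was -0.24 (adjusted p = 0.0702). Foxm1 had 1702 to 1812 units in SC1 samples and 1652 to 1725 units in DMSO samples, overlapping between groups, and a log2 fold change of 0.063 (95% interval -0.046 to 0.17, adjusted p = 0.322). Whether Mybl2 and Foxm1 differed in their change was not tested.

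Of the 38 genes 13 were measured by 2 or 3 probes, and no gene had probes called in opposite directions when every probe was tested. For Mybl2 both probes passed. The Cdk1 probes gave 0.26, 0.33 and 0.43, of which the dimmest did not pass (adjusted p = 0.0614). Mad2l1 had -0.29 on its bright probe and -0.91 and -1.18 on 2 dim probes, which did not pass (adjusted p = 0.0547 and 0.0631). On both dim probes DMSO replicate 1 was the highest DMSO sample, at 183 units beside 112 and 114 on one and at 253 units beside 101 and 115 on the other. Ccnb1 passed on its brightest probe only, and the other probes gave 0.014 and 0.076. With the mean of its probes the adjusted p of Ccnb1 was 0.138. Tpx2 passed on 1 of its probes: the brightest gave -0.0080, and a second, annotated to another RefSeq transcript of the gene, gave 0.28 (adjusted p = 0.0109), with 559, 520.2 and 585 units in SC1 samples against 453, 454 and 460.2 units in DMSO samples. Cdca8 and Foxm1 had probes of opposite sign, none of which passed.

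**Figure D4:**
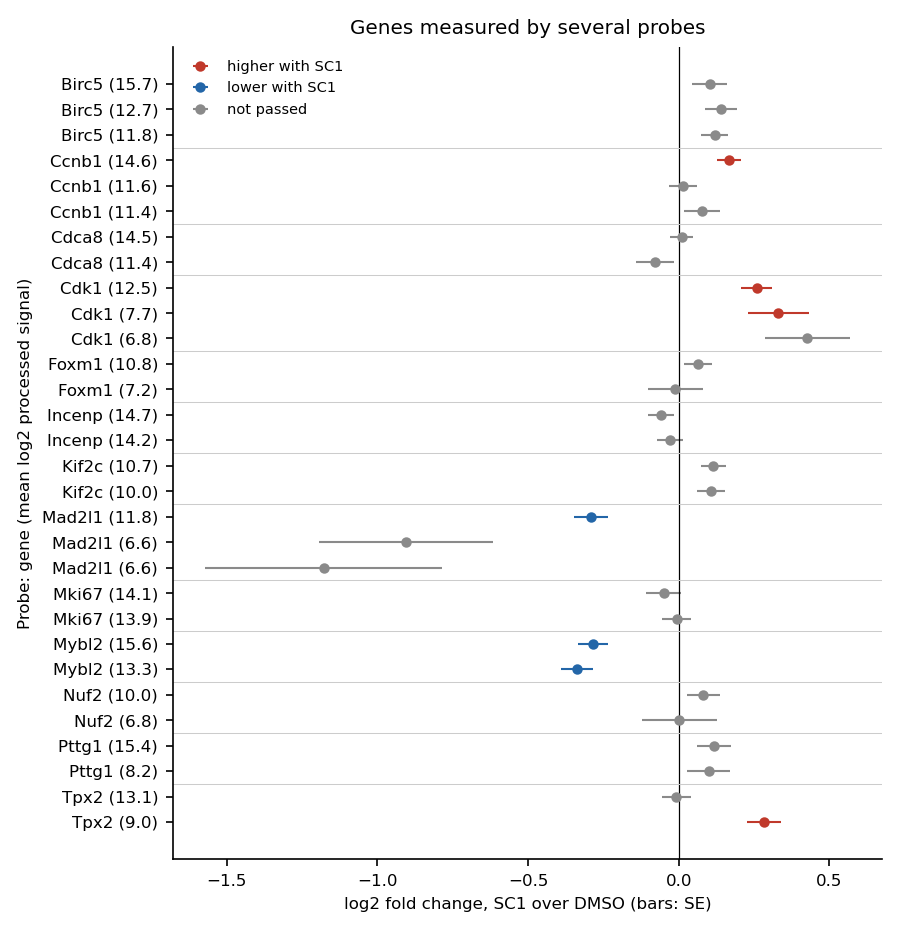
Log2 fold change, SC1 over DMSO, of every probe of the 13 genes with several probes, brightest first, with SE. The number after each gene is the probe's mean log2 processed signal. The 2 dim Mad2l1 probes lie at -0.91 and -1.18 with the bright one at -0.29, and the Tpx2 probes lie at -0.0080 and 0.28.

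The 38 genes were also followed sample by sample. The median deviation from the DMSO mean was 0.11, 0.023 and 0.095 on the log2 scale in SC1 replicates 1, 2 and 3, and -0.024, 0.0061 and 0.021 in DMSO replicates 1, 2 and 3. SC1 replicate 2 had the lowest median of the SC1 samples, close to that of DMSO replicate 3. Only 6 of the 38 genes lay above their SC1 mean in it, against 27 and 28 in SC1 replicates 1 and 3. For Bub1, Mad2l1, Ttk and Mybl2 it was the SC1 sample farthest below the DMSO mean, at -0.29, -0.31, -0.32 and -0.32. Without SC1 replicate 2 the median log2 fold change of the 38 genes was 0.11. The median SD within a group was 0.0507 in SC1 samples and 0.0472 in DMSO samples, against 0.0757 and 0.0711 over all genes tested. Probe brightness was not matched in that comparison. By role the spindle checkpoint genes had medians of -0.17, -0.29 and -0.16 in SC1 replicates 1 to 3, and the centromere and kinetochore genes 0.18, 0.20 and 0.20. Deviations of these groups of 5 and 6 genes are a description and were not tested.

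Further genes of mitosis, in 8 lists, also changed in both directions. Of 145 tested, 20 were called higher and 22 lower, and 103 did not pass. The 29.0% called stands beside 38.4% of everything tested and 44.95% of genes with an official symbol. The median log2 fold change of the 145 was -0.0086. Calls in these lists also changed with the setting. Of 51 genes, up to 4 of each related or marker list, 31 lost their call with spike-in scaling and 9 without at least 1 array. Some also lost their call with the slide column as a block, which rests on 1 SC1 sample. Of the genes of mitosis and G1/S named below, only Gtse1, Haus2, Septin11, E2f4, Mybl1, Ccne1 and E2f2 kept it with spike-in scaling. Among 18 subunits and regulators of the APC/C 3 rose (16.7%), 3 fell (16.7%) and 12 did not pass. Across everything tested 18.1% rose and 20.2% fell, which also stands beside the lists that follow. Fzr1, which encodes the late mitotic activator CDH1, had a log2 fold change of 0.24, Anapc10 0.37, Anapc16 0.31 and Cdc26 -0.31. The Anapc10 probe was dim, with 33.0 to 38.2 units in SC1 samples and 26.0 to 28.6 units in DMSO samples. Fzr1 had an adjusted p of 0.0576 with the slide column as a block. Of 13 further genes listed around CDK1, not all of them its direct regulators, 3 fell (23.1%) and 10 did not pass. Gtse1, a G2 protein that binds microtubules, was among those that fell (log2 fold change -0.51, SE 0.0426, adjusted p = 0.000378). So was Cdc25a, the third CDC25 phosphatase gene (log2 fold change -0.32, SE 0.0419, adjusted p = 0.00208). Bora, an activator of Aurora A, fell by 0.21 on the log2 scale, but lost its call when any of 5 arrays was left out (adjusted p up to 0.131). Of the CDC25 genes Cdc25b was thus called higher and Cdc25a lower, and Cdc25c did not pass. With spike-in scaling the adjusted p was 0.0541 for Cdc25b and 0.0959 for Cdc25a.

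In the outer kinetochore and checkpoint list 3 of 17 rose (17.6%), 1 fell (5.88%) and 13 did not pass. Spc24, which joins SPC25 in the NDC80 complex, had a log2 fold change of 0.24, Dsn1, a subunit of the MIS12 complex, 0.27, and Mad1l1, which recruits MAD2 to kinetochores, 0.21. With the slide column as a block Mad1l1 and Dsn1 did not pass (adjusted p = 0.0728 and 0.0781), and scaled to the spike-ins all 3 lost their calls, with adjusted p of 0.371 to 0.551. Trip13, which remodels MAD2, had -0.18 and lost its call when any of 4 arrays was left out (adjusted p up to 0.0708). Among 22 inner centromere genes 2 rose (9.09%) and 3 fell (13.6%). Cenpl had 0.22, Cenpi 0.16, Cenpb -0.26 and Hjurp, the chaperone that loads CENP-A, -0.27. Cenpi and Hjurp also lost their calls when any of 4 and any of 5 arrays was left out, with adjusted p up to 0.0912 and 0.122. Cenpb and Cenpl did not pass with the slide column as a block (adjusted p = 0.0536 and 0.0903). Of 28 further kinesins and spindle genes 6 rose and 3 fell, and those with the smallest p were Dlgap5 (0.32), Haus2 (-0.43), Numa1 (0.29) and Kif20b (-0.28).

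Genes that hold and part sister chromatids, condensin, cohesin and separase, gave 1 increase (5.56%) and 3 decreases (16.7%) among 18. Of everything tested 18.1% rose and 20.2% fell. Stag1, a cohesin subunit, had a log2 fold change of 0.30 and Wapl, which releases cohesin, -0.32. Pds5a and Cdca5 had -0.17 and -0.12. The calls of Wapl, Pds5a and Cdca5 were lost when any of 3, 4 and 6 arrays was left out, with adjusted p up to 0.0542, 0.0992 and 0.113. Among 14 cytokinesis genes 3 rose (21.4%) and 1 fell (7.14%). Cit, the midbody kinase citron, had 0.40, Chmp4c, an abscission checkpoint protein gene, 0.34, Anln, the anillin gene, 0.24 and Septin11 -0.37. The call of Anln was lost when any of 5 arrays was left out (adjusted p up to 0.0635).

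Decreases outnumbered increases among the E2F and DREAM genes and the G1/S genes. Of 15 MuvB, DREAM and E2F partner genes 2 rose (13.3%) and 5 fell (33.3%), beside 18.1% and 20.2% of everything tested. Mybl1, which encodes A-MYB, had a log2 fold change of -0.60 (adjusted p = 0.00363). Its probe was dim, with 50.1 to 50.5 units in SC1 samples and 66.4 to 83.2 units in DMSO samples. E2f4, the E2F of the DREAM repressor, had -0.54 (adjusted p = 0.00181), E2f5 -0.37 and Dyrk1a, the kinase that assembles DREAM, 0.29. The MuvB subunit genes Lin9, Lin37, Lin52, Lin54 and Rbbp4, whose products bind B-MYB as a complex, did not pass, with log2 fold changes of -0.024 to 0.15. E2f5 had an adjusted p of 0.0744 with the slide column as a block. Of 32 G1/S and replication genes 1 rose and 10 fell, with 21 not passing and a median of -0.084. The 4 with the smallest p all fell: E2f2 by 0.96, Ccne1, the cyclin E1 gene, by 0.79, Slbp, which processes histone messages, by 0.31 and Uhrf1 by 0.26 on the log2 scale. The 31.2% of G1/S and replication genes called lower stands beside 20.2% of everything tested, 23.7% of genes with an official symbol and 10.5% of the mitotic genes. These lists were not tested against each other. With spike-in scaling Ccne1 and E2f2 kept their calls (adjusted p = 5.3e-05 and 2.74e-06), and Slbp and Uhrf1 did not (adjusted p = 0.109 and 0.187).

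**Figure D5:**
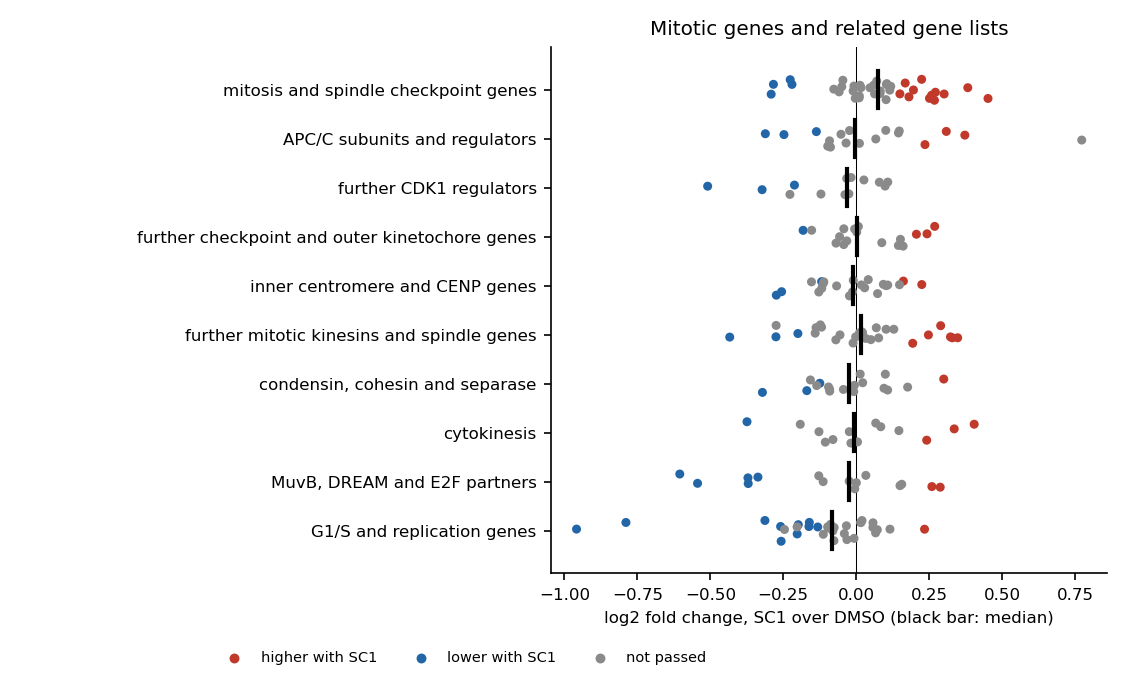
Log2 fold change, SC1 over DMSO, of the 38 mitotic genes (top row) and of genes in 9 related lists, 1 point per gene, coloured by call, with the median of each list as a black bar. The mitotic genes lie between -0.29 and 0.45 with a median of 0.076, and E2f2 at -0.96 and Ccne1 at -0.79 are the lowest points.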

How the data were processed

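RNA of 3 SC1 and 3 DMSO samples of J1 cells was measured on single-colour Agilent arrays. The authors deposited each array's scanner intensity values, made with Agilent Feature Extraction 10.7 per the submitters' processing notes. Per the file headers the processed intensity is background-subtracted and spatially detrended, and is not normalized between arrays. A matrix of log2 values was deposited too. Its columns share the same quartiles and a median of 5.17, its method is not given in the sources used here, and it served as an alternative.

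The log2 processed intensity of each distinct probe was centred on its array's 75th percentile. Probes entered the test if the deposited 0 or 1 flags put them well above background on every array of SC1 or of DMSO (35321 of 55681 probes). The brightest probe stood for a gene. SC1 and DMSO samples were compared with limma 3.58.1 in R 4.3.3, and p-values were adjusted by Benjamini-Hochberg over 25421 genes and intervals at 0.05. The script was tested on simulated data. Labels give the groups. Members and lists were chosen with earlier results of these data known. All 38 genes are named, and from each other list at most 4 that passed, in order of p. The MuvB subunit genes, Gata6, Dab2, Sox17, Sox7, Eomes and Cdx2 were named after their values were seen. Alternatives were other scalings, background corrections, filters, probe rules, a replicate block, the slide column as a block, a stricter threshold and leaving out each array.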

Additional observations from a re-analysis of the deposited data

How the results depend on the processing

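The 16 genes that passed kept their direction under all 20 alternatives, but 6 of these leave the fold change as it is, and the slide column as a block and leaving out an array cannot turn it where groups do not overlap. The count of increases among the 38 genes was 0 with spike-in scaling, 2 with the slide column as a block and 4 at an adjusted p under 0.01. The count of decreases was 0, 0 and 2 under those settings. Their median log2 fold change was 0.14 with quantile normalization and 0.14 with the deposited matrix, against 0.076. It was 0.036 with spike-in scaling and 0.047 with normexp and the 75th percentile. The shift of the median over all genes tested was at most 0.05 under any scaling. Leaving out 1 array at a time gave 7 to 11 increases, 2 to 4 decreases and a median of 0.053 to 0.11. The share of all genes called was 30.2% to 32.8% without 1 array and 22.8% at an adjusted p under 0.01, against 38.4%. The fewest increases came without SC1 replicate 1, and the 2 decreases without DMSO replicate 2 or DMSO replicate 3.

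Same-numbered SC1 and DMSO samples did not deviate together (correlations over genes of -0.013, -0.036 and -0.015), so the numbers were not taken to pair samples. The replicate block gave 8 increases and 2 decreases, with 31.1% of all genes called.

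Among the 22 genes that did not pass, estimates near 0 changed sign, and the cause was not tested. The log2 fold changes that did so follow by setting. With quantile normalization, they were 0.060 for Ccnb2, 0.014 for Cdc25c, 0.038 for Incenp, 0.069 for Tpx2, 0.040 for Ect2 and 0.040 for Mki67. With spike-in scaling, they were -0.030 for Cdca8, -0.024 for Bub3, -0.027 for Cdc20 and -0.030 for Top2a. With normexp and 75th percentile, they were 0.055 for Aurkb, -0.0010 for Cdca8 and -0.020 for Bub3. With normexp and quantile normalization, they were 0.083 for Ccnb2, 0.036 for Incenp, 0.080 for Tpx2, 0.021 for Ect2 and 0.047 for Mki67. With the deposited log2 matrix, they were 0.052 for Ccnb2, 0.016 for Cdc25c, 0.038 for Incenp, 0.071 for Tpx2, 0.036 for Ect2 and 0.037 for Mki67. With the mean of the probes of a gene, they were -0.035 for Cdca8 and 0.14 for Tpx2. With the slide column as a block, they were 0.020 for Tpx2. Leaving out 1 array at a time gave ranges across 0 for Top2a (-0.024 to 0.035), Cdc25c (-0.073 to 0.059), Bub3 (-0.017 to 0.043), Ccnb2 (-0.034 to 0.013) and Tpx2 (-0.024 to 0.022).

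With 3 arrays a group the median SE was 0.0479 on the log2 scale for the 38 genes. None of the 55 probes was below background or saturated on any array.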
